A study of Mus musculus with 27 samples.

Results

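The genes described here are 38 macrophage and myeloid markers of the mouse, chosen by symbol from a list of receptors, complement chains, Fc receptors, lysosomal and oxidase genes, and genes shared by most leukocytes. All 38 were among the 24062 gene symbols of the count table. The rule names symbols and uses no measured value, but the list was chosen with earlier results of these data known. They were read in 27 RNA sequencing libraries of a study of the transcription factor Foxm1, in 9 groups of 3 libraries each, all labelled strain C57BL/6. Whole lung came from animals aged 10 days with genotype labels Het and WT. Mouse embryonic fibroblasts, grown unsynchronised at an early passage to about 90% confluence, formed experiment 1 (KO-NTD, KO and WT) and experiment 2 (Het-NTD, Het, WT-NTD and WT). The labels do not spell out NTD, name no sorting of cells by a marker, leave the altered stretch of Foxm1 unnamed, and do not state whether the libraries of a group came from separate embryos or animals. The p-values below therefore measure only the spread between these libraries, which may be technical.

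Macrophages enter embryonic tissues from the yolk sac and the foetal liver and persist there as resident cells. They depend on the receptor encoded by Csf1r, whose ligand CSF1 is made by fibroblasts and other mesenchymal cells. In the lung, alveolar macrophages live in the air spaces and interstitial macrophages in the tissue between them, beside the monocytes, neutrophils and lymphocytes that share some of the same genes.

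Libraries held 29730693 to 69517834 assigned counts (median 42708114). Foxm1 itself had 400, 421 and 361 CPM (counts scaled to the size of each library, on 1 scale over the 27 libraries) in libraries labelled KO-NTD, 150, 160 and 162 CPM in KO and 145, 153 and 148 CPM in WT. The total count of the gene was thus not lower in the libraries labelled KO, and a whole-gene count does not check an alteration of part of the gene. Foxm1 had 363, 321 and 391 CPM in Het-NTD, 131, 136 and 135 CPM in Het, 422, 305 and 351 CPM in WT-NTD and 151, 152 and 154 CPM in WT of experiment 2, and 14, 14.7 and 16.9 CPM in Het lung and 16.8, 15 and 15.5 CPM in WT lung. The 10 fibroblast markers, collagen genes among them, summed to 7650 to 11100 CPM in lung and to 35200 to 55500 CPM in the cultures. The 6 alveolar epithelial markers summed to 16100 to 24700 CPM in lung and to at most 6.55 CPM in the cultures.

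The macrophage genes were present in both tissues, and their level in the cultures differed from library to library far more than in lung. Lyz1 and Lyz2, the lysozymes, which lung epithelium also makes, were set aside, and the CPM of the other 36 genes were summed in each library. The sums were 816, 787 and 1050 CPM in Het lung and 895, 736 and 891 CPM in WT lung. The sums in experiment 1 were 52.4, 13.3 and 331 CPM in KO-NTD, 15.8, 468 and 341 CPM in KO, and 150, 88.6 and 107 CPM in WT. They were 23.6, 18.7 and 24.8 CPM in Het-NTD, 108, 17 and 44.3 CPM in Het, 261, 106 and 145 CPM in WT-NTD, and 288, 249 and 302 CPM in WT of experiment 2.

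The highest lung sum was 1.42 times the lowest, and the highest fibroblast sum was 35.1 times the lowest. With both lysozymes included these ratios were 1.38 in lung and 40.6 in the cultures. The summed fibroblast markers of the same cultures varied 1.58-fold. Within the group KO the highest library was 29.6 times the lowest, within KO-NTD 24.8 times and within Het 6.35 times. Within the other fibroblast groups the ratio was 2.46 in WT-NTD, 1.69 in WT of experiment 1, 1.33 in Het-NTD and 1.21 in WT of experiment 2. In bulk RNA, fewer cells of a type and less RNA per cell cannot be told apart, here and in each comparison below.

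**Figure D1:**
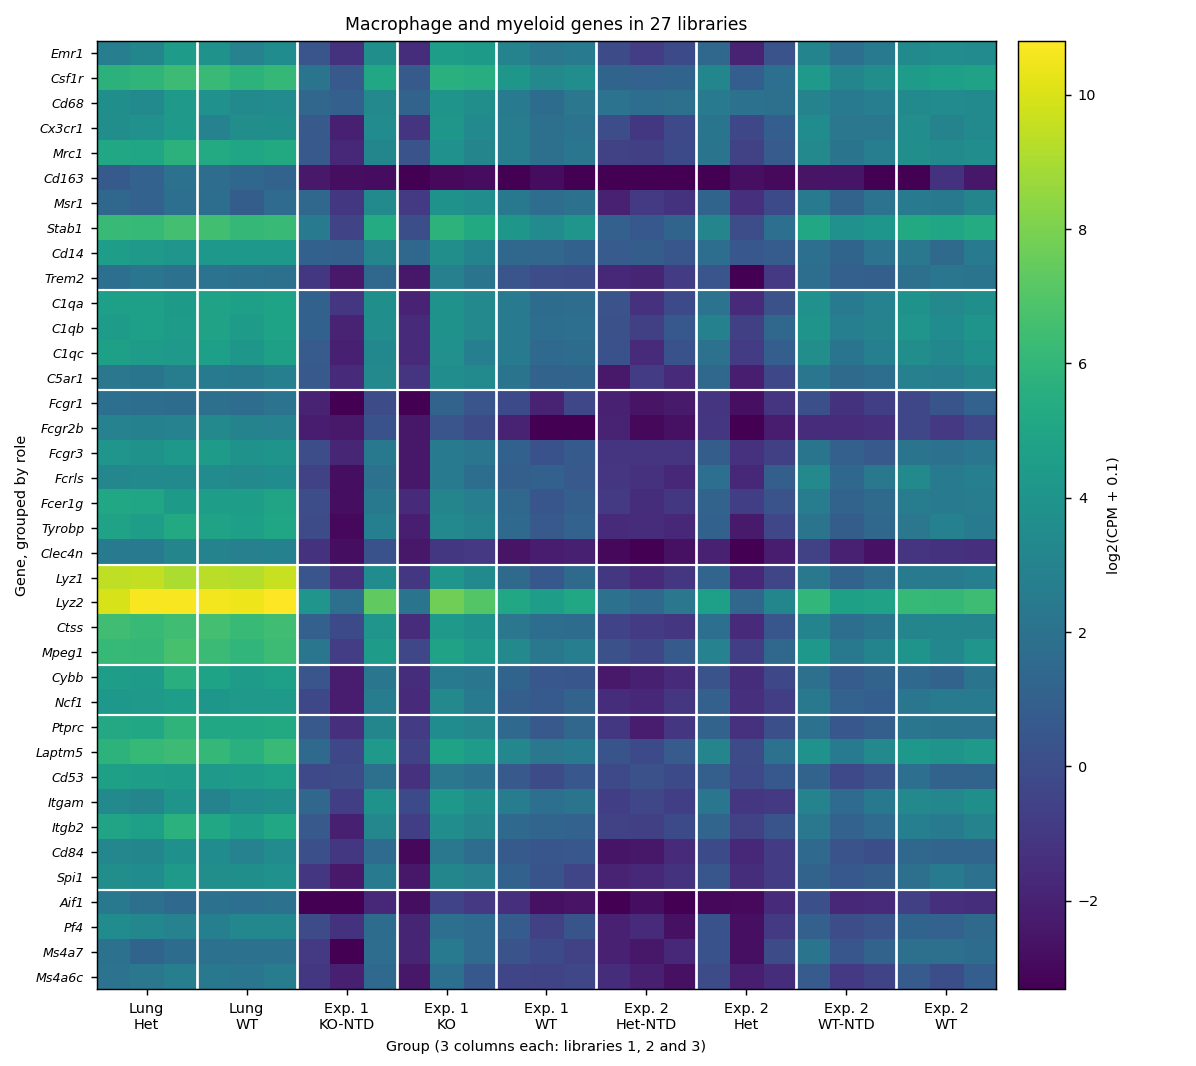
Level of each of the 38 genes (down the page, grouped by role) in each of the 27 libraries (across), as log2(CPM + 0.1). The lung libraries are similar to each other, while KO 1 is low against KO 2 and KO 3, and KO-NTD 1 and KO-NTD 2 are low against KO-NTD 3, for nearly the whole list.

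**Figure D2:**
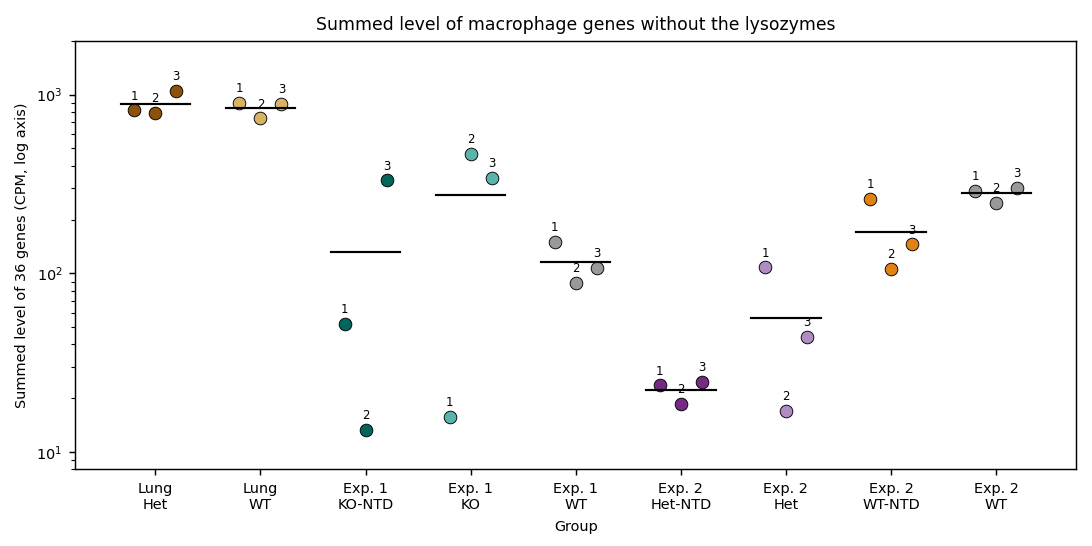
Summed CPM of the 36 genes without the lysozymes, on a log axis, for each library. Points carry the library number and lines are group means: lung lies between 736 and 1050 CPM and the cultures between 13.3 and 468 CPM.

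The same libraries were high or low for most of the genes. KO 2 was the highest of the 21 fibroblast libraries for 32 of the 38 genes, the exceptions being Cd163, C1qa, C1qb, Fcrls, Clec4n and Aif1. Between the libraries labelled KO, library 1 differed from library 2 by a median of -4.92 on the log2 scale and from library 3 by -4.38, with none of the 37 tested genes higher in library 1. In WT-NTD, library 1 was above library 2 for 37 of 37 genes (median 1.26). In lung the ratio of a gene's highest to its lowest library ran from 1.3 to 3.32 with a median of 1.64. Across the 21 cultures the same ratio, with 3 counts as the floor, ran from 6.97 to 158 with a median of 80.1, and 13 genes had a lowest library at or under that floor, so that their ratios are lower bounds.

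Members with a wide range in the cultures were Emr1, the F4/80 surface receptor (155-fold), Fcrls, a scavenger receptor related to Fc receptors (at least 158-fold), and Tyrobp, the DAP12 signalling adaptor (at least 144-fold); the last 2 had 2 counts and 1 count in their lowest library. Among genes above the floor in every culture the narrowest ranges were those of Cd68, a late endosomal glycoprotein (8.21-fold), Cd14, the co-receptor for lipopolysaccharide (9.74-fold), and Cd53, a leukocyte tetraspanin (15.8-fold). Cd163, the haemoglobin scavenger receptor, was at 0 in 9 cultures and had at most 12 counts in any, too few to rank its range. In KO 1 Cd14 made up 16.2% and Cd68 13.7% of the summed level, against 2.62% and 3.37% in KO 2.

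In experiment 1 the libraries labelled KO had neither a uniformly high nor a uniformly low level of these genes. Emr1 had 1.23, 0.324 and 13.1 CPM in KO-NTD, 0.262, 24 and 20.3 CPM in KO, and 7.92, 4.82 and 5.67 CPM in WT. Csf1r had 4.3, 1.44 and 33.8 CPM in KO-NTD, 1.53, 49.7 and 44 CPM in KO, and 18, 9.81 and 11.9 CPM in WT. Cd68 had 2.46, 1.92 and 9.91 CPM in KO-NTD, 2.17, 15.8 and 12.6 CPM in KO, and 5.53, 3.12 and 4.8 CPM in WT. For these 3 genes KO 2 and KO 3 were above each WT library and KO 1 was below each of them, while in KO-NTD only library 3 was above WT.

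C1qa, a chain of the complement initiator C1q, had 2.03, 0.37 and 13.2 CPM in KO-NTD, 0.153, 14.9 and 9.77 CPM in KO, and 5.78, 3.14 and 3.27 CPM in WT. C1qb had 2.03, 0.162 and 12 CPM in KO-NTD, 0.219, 14.7 and 10 CPM in KO, and 5.62, 3.33 and 3.49 CPM in WT. C1qc had 1.59, 0.139 and 9.52 CPM in KO-NTD, 0.219, 14.1 and 6.87 CPM in KO, and 5.38, 2.78 and 3.07 CPM in WT. As for the surface receptors, KO 2, KO 3 and KO-NTD 3 were above each WT library and KO 1 was below each of them. Fcgr1, the high-affinity receptor for IgG, had 0.152, 0 and 0.848 CPM in KO-NTD, 0, 2.2 and 1.22 CPM in KO, and 0.81, 0.164 and 0.711 CPM in WT. Mrc1, the mannose receptor, had 1.42, 0.208 and 8.85 CPM in KO-NTD, 1.14, 14.2 and 8.36 CPM in KO, and 6.28, 3.56 and 4.6 CPM in WT. Ptprc, which encodes the leukocyte phosphatase CD45, had 1.42, 0.278 and 8.79 CPM in KO-NTD, 0.481, 11.5 and 9.23 CPM in KO, and 2.72, 1.46 and 2.44 CPM in WT. For these 3 genes too, KO 2 and KO 3 were above each WT library. Cd163, a scavenger receptor, was near the floor throughout, with 0.0947, 0.0463 and 0.0385 CPM in KO-NTD, 0, 0.0306 and 0.0381 CPM in KO, and 0, 0.0365 and 0 CPM in WT, and at 9 counts or fewer per group it did not pass the filter on low counts.

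The comparison of KO with WT tested 37 of the 38 genes. With edgeR's quasi-likelihood test, 0 of 37 were called at an adjusted p under 0.05 in either direction, where 0.447% of all 14551 genes tested were called. DESeq2 also called 0 (2.36% of all genes), and 2 genes had an unadjusted p under 0.05 (12% of all genes tested). The log2 fold changes lay between 0.74 and 3.85 with a median of 1.30, and 37 of 37 were above 0, beside a median of 0.01 and 51.9% above 0 over all genes tested. The median was 1.87 without KO 1 and 0.78 without KO 2.

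The lowest adjusted p belonged to Fcgr2b, the inhibitory IgG receptor. It had 0.114, 0.0926 and 1.06 CPM in KO-NTD, 0.0875, 1.24 and 0.876 CPM in KO, and 0.157, 0 and 0 CPM in WT, and its log2 fold change was 3.85 ± 1.56 (edgeR adjusted p = 0.375), a fitted value that depends on the prior count since WT 2 and WT 3 were at 0. Cd14 had 1.99, 1.83 and 8.67 CPM in KO-NTD, 2.56, 12.3 and 8.07 CPM in KO, and 2.61, 2.43 and 1.98 CPM in WT, with a log2 fold change of 1.73 ± 0.72 for KO over WT (edgeR adjusted p = 0.392). For both genes KO 1 lay within the range of WT and KO 2 and KO 3 above it. Trem2, a lipid-sensing receptor that signals through Tyrobp, had 0.398, 0.0926 and 2.54 CPM in KO-NTD, 0.0875, 6.89 and 4.3 CPM in KO, and 1.21, 0.914 and 0.844 CPM in WT, and Clec4n, the fungal receptor Dectin-2, had 0.322, 0.0463 and 1.06 CPM in KO-NTD, 0.0875, 0.382 and 0.4 CPM in KO, and 0.0675, 0.11 and 0.133 CPM in WT. Their log2 fold changes were 1.95 ± 1.31 and 1.5 ± 1 with edgeR adjusted p = 0.605 and 0.601, and that of Cd68 was 1.21 ± 0.8 (edgeR adjusted p = 0.599).

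KO-NTD over KO gave 0 calls among 37 genes by edgeR, 0 by DESeq2 and 0 at an unadjusted p under 0.05, where edgeR called 0.00687% of all genes tested, DESeq2 0.137% and 6.68% had such a p. Of the 37 genes 36 had a log2 fold change below 0 (48% of all genes were above 0), with a median of -1.01. That median was -3.17 without KO-NTD 3 and -0.35 without KO 2. Aif1, which encodes the actin-binding protein IBA1, had 0, 0 and 0.193 CPM in KO-NTD, 0.0437, 0.626 and 0.4 CPM in KO, and 0.27, 0.0548 and 0.0667 CPM in WT and the lowest adjusted p (-2.43 ± 1.29, edgeR adjusted p = 0.714). Clec4n was the 1 gene above 0, at 0.69 ± 0.89 (edgeR adjusted p = 0.844). Within experiment 1, KO 2 was the highest library for 36 of 37 genes, and KO-NTD 2 was the lowest for 24 and KO 1 for 11. Over all genes tested, KO 2 was highest for 10.8%, KO-NTD 2 lowest for 12.2% and KO 1 lowest for 16.9%.

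In experiment 2 the macrophage genes were lower in Het than in WT fibroblasts. Of 37 genes tested, 26 were called lower and 0 higher by edgeR, where 8.61% of all 14314 genes were called lower. DESeq2 called 30 lower and 0 higher, with 8.35% of all genes lower. Log2 fold changes had a median of -2.29 (range -3.09 to -0.98), beside a median of 0.01 over all genes tested. For 36 of 37 genes each Het library was below each WT library, against 17.2% of all genes, and Cd14 was the exception. By role, the calls were 8 of 9 identity receptors, 3 of 4 complement genes, 4 of 7 Fc receptors and adaptors, 3 of 4 lysosomal and pore-forming genes, both oxidase subunits, 4 of 7 pan-leukocyte genes and 2 of 4 others.

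Cd68 had 4.05, 3.29 and 3.6 CPM in Het-NTD, 5.43, 3.73 and 3.56 CPM in Het, 8.03, 5.43 and 6.5 CPM in WT-NTD, and 10.4, 11 and 10.3 CPM in WT. Its Het over WT log2 fold change was -1.31 ± 0.18 (edgeR adjusted p = 0.000597). Spi1, which encodes the transcription factor PU.1 that myeloid cells require, had 0.17, 0.199 and 0.315 CPM in Het-NTD, 1.3, 0.259 and 0.463 CPM in Het, 2.13, 1.36 and 1.7 CPM in WT-NTD, and 3.62, 5.83 and 3.78 CPM in WT. It was lower in Het by a log2 fold change of -2.69 ± 0.45 (edgeR adjusted p = 0.00244). In both genes the WT libraries were the highest 3 of the experiment.

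Emr1 had 0.825, 0.485 and 0.789 CPM in Het-NTD, 2.61, 0.155 and 1.13 CPM in Het, 8.24, 3.42 and 5.56 CPM in WT-NTD, and 10.4, 11.9 and 11.2 CPM in WT, a log2 fold change of -3.09 ± 0.62 for Het over WT (edgeR adjusted p = 0.00964). Csf1r had 2.21, 2.07 and 2.23 CPM in Het-NTD, 8.73, 1.76 and 3.47 CPM in Het, 19.9, 8.85 and 12.4 CPM in WT-NTD, and 22.6, 24.6 and 28.4 CPM in WT, a fold change of -2.43 ± 0.49 on the same scale (edgeR adjusted p = 0.0105). Stab1, the scavenger receptor stabilin-1, had 1.94, 1.39 and 2.23 CPM in Het-NTD, 8.55, 0.906 and 3.41 CPM in Het, 34.1, 14.1 and 16.9 CPM in WT-NTD, and 38.8, 31.3 and 40.8 CPM in WT, with -3.09 ± 0.62 on that scale (edgeR adjusted p = 0.0114). Het 1 was the highest Het library for each of these genes and still below WT.

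Mrc1 had 0.558, 0.53 and 0.789 CPM in Het-NTD, 4.25, 0.569 and 1.59 CPM in Het, 10, 4.2 and 6.5 CPM in WT-NTD, and 12.4, 10.3 and 12 CPM in WT (log2 fold change -2.42 ± 0.55, edgeR adjusted p = 0.0159). Itgb2, the shared beta chain of leukocyte integrins, had 0.582, 0.53 and 0.815 CPM in Het-NTD, 2.36, 0.569 and 1.16 CPM in Het, 4.89, 2.06 and 3 CPM in WT-NTD, and 6.66, 5.72 and 7.83 CPM in WT (log2 fold change -2.29 ± 0.43, edgeR adjusted p = 0.00515). Cd84, an adhesion receptor of the SLAM family, had 0.0728, 0.0883 and 0.237 CPM in Het-NTD, 0.811, 0.207 and 0.463 CPM in Het, 2.76, 1.14 and 0.947 CPM in WT-NTD, and 2.55, 2.37 and 2.3 CPM in WT (log2 fold change -2.27 ± 0.5, edgeR adjusted p = 0.0097). Het and WT did not overlap for these 3 genes, and Het-NTD and WT-NTD did not either.

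The complement genes went the same way with wider errors. C1qa had 1.12, 0.309 and 0.815 CPM in Het-NTD, 4.13, 0.233 and 1.04 CPM in Het, 14.3, 5.46 and 7.64 CPM in WT-NTD, and 15.1, 9.85 and 12.8 CPM in WT, and C1qc had 1.09, 0.221 and 1.1 CPM in Het-NTD, 3.93, 0.466 and 1.77 CPM in Het, 12.4, 4.46 and 6.82 CPM in WT-NTD, and 12.5, 9.48 and 13.6 CPM in WT. Both were called lower in Het, with log2 fold changes of -2.78 ± 0.75 and -2.52 ± 0.67 (edgeR adjusted p = 0.0349 and 0.032). C1qb had 1.04, 0.53 and 1.37 CPM in Het-NTD, 7.37, 0.544 and 2.58 CPM in Het, 15.5, 6.72 and 7.74 CPM in WT-NTD, and 16.6, 11.6 and 15.6 CPM in WT and did not pass the test, at -2.05 ± 0.69 (edgeR adjusted p = 0.075). Het 1 carried 7.37 CPM of C1qb, against 0.544 and 2.58 CPM in the other Het libraries.

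Ptprc had 0.388, 0.11 and 0.368 CPM in Het-NTD, 2.14, 0.311 and 1.01 CPM in Het, 3.77, 1.31 and 1.86 CPM in WT-NTD, and 4.58, 4.29 and 4.11 CPM in WT and was called lower in Het (-1.89 ± 0.57, edgeR adjusted p = 0.0438). Fcgr1 had 0.146, 0.0662 and 0.105 CPM in Het-NTD, 0.344, 0.0518 and 0.347 CPM in Het, 0.977, 0.315 and 0.505 CPM in WT-NTD, and 0.713, 1.17 and 2.04 CPM in WT and was called lower as well (-2.39 ± 0.61, edgeR adjusted p = 0.0193). Cd163 had 0, 0 and 0 CPM in Het-NTD, 0, 0.0518 and 0.0289 CPM in Het, 0.0698, 0.0728 and 0 CPM in WT-NTD, and 0, 0.319 and 0.0886 CPM in WT and was not tested. The 11 tested genes without a call were Itgam, Cd14, Laptm5, C1qb, Fcrls, Ms4a6c, Cd53, Fcgr2b, Mpeg1, Aif1 and Clec4n, with log2 fold changes from -0.98 in Cd53 to -2.52 in Itgam.

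The number of calls depended on which libraries entered. Fitted on Het and WT alone edgeR called 10 of the genes lower, and it called 10 without Het 3, 13 without WT 3 and 16 without WT 2. The 10 fibroblast markers summed to 50600 to 55500 CPM in Het and to 39000 to 49500 CPM in WT. Of the 10, 1 was called higher and 1 lower, beside 16.5% of all genes in either direction. The part of these markers in the result was not tested.

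Het-NTD and WT-NTD fibroblasts differed in the same direction. edgeR called 32 of 37 genes lower in Het-NTD and 0 higher, where 6.24% of all genes tested were called lower, and DESeq2 called 35 lower and 0 higher, with 6.23% of all genes lower. Their median log2 fold change was -3.30 (range -4.54 to -0.61). For 36 genes each Het-NTD library was below each WT-NTD library, against 16.7% of all genes, and Cd53 was the exception. The calls covered 8 of 9 identity receptors, each of the 4 complement genes, 5 of 7 Fc receptors and adaptors, each of the 4 lysosomal genes, both oxidase subunits, 6 of 7 pan-leukocyte genes and 3 of 4 others.

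Cybb, the catalytic subunit of the phagocyte NADPH oxidase, had 0.097, 0.132 and 0.237 CPM in Het-NTD, 1.13, 0.259 and 0.723 CPM in Het, 3.56, 1.6 and 2.12 CPM in WT-NTD, and 2.77, 2.18 and 4.16 CPM in WT. Its Het-NTD over WT-NTD log2 fold change was -3.94 ± 0.56 (edgeR adjusted p = 0.00104). Fcer1g, the signalling chain shared by activating Fc receptors, had 0.437, 0.265 and 0.394 CPM in Het-NTD, 2.16, 0.518 and 1.13 CPM in Het, 6.28, 2.13 and 2.87 CPM in WT-NTD, and 6.12, 5.27 and 6.14 CPM in WT, and its log2 fold change was -3.34 ± 0.54 (edgeR adjusted p = 0.003). For both genes the 3 Het-NTD libraries were the lowest of the experiment. In the same comparison Cd84 had a log2 fold change of -3.58 ± 0.59, Spi1 of -2.9 ± 0.52 and Mrc1 of -3.45 ± 0.62 (edgeR adjusted p = 0.00256, 0.00423 and 0.00743), from the library values given above.

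Msr1, the class A scavenger receptor, had 0.146, 0.419 and 0.315 CPM in Het-NTD, 2.21, 0.285 and 0.81 CPM in Het, 5.79, 2.13 and 4.01 CPM in WT-NTD, and 5.29, 5.08 and 8.57 CPM in WT and was called lower in Het-NTD (-3.72 ± 0.7, edgeR adjusted p = 0.00785). The 5 tested genes without a call were Ms4a6c, Cd14, Clec4n, Fcgr2b and Cd53. Without single Het-NTD libraries edgeR called fewer genes, 13 without library 1, 10 without library 2 and 16 without library 3. The fibroblast markers summed to 51900 to 55300 CPM in Het-NTD and to 42900 to 51300 CPM in WT-NTD, and their part in the result was not tested. Het with WT and Het-NTD with WT-NTD share no library, although 1 fit estimated the spread of both.

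The groups labelled NTD, set against the same genotype without that label, gave no call. In WT-NTD over WT, edgeR called 0 of 37 genes and DESeq2 called 0. Of all genes, 0.014% were called by edgeR and 0.159% by DESeq2. In edgeR 4 of the 37 had an unadjusted p under 0.05 (7.37% of all genes). The median log2 fold change was -0.75, and 18 genes were lower in WT-NTD without overlap, against 5% of all genes. Cd68 (-0.67 ± 0.17) and Spi1 (-1.36 ± 0.42) had the lowest edgeR adjusted p, 0.654 each, and Aif1 was the 1 gene above 0 (0.28 ± 0.75, edgeR adjusted p = 0.948). Aif1 had 0, 0.0441 and 0 CPM in Het-NTD, 0.0246, 0.0259 and 0.231 CPM in Het, 0.977, 0.194 and 0.221 CPM in WT-NTD, and 0.548, 0.293 and 0.266 CPM in WT, so that its value above 0 came from WT-NTD 1. Cd53 had 0.752, 1.02 and 0.789 CPM in Het-NTD, 1.82, 0.776 and 1.39 CPM in Het, 2.13, 0.752 and 1.11 CPM in WT-NTD, and 3.46, 2.18 and 2.24 CPM in WT, with -1 ± 0.39 for WT-NTD over WT (edgeR adjusted p = 0.656). The median was -0.50 without WT-NTD 2 and -1.20 without WT-NTD 1.

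In Het-NTD over Het, edgeR again called 0 of 37 genes (0.014% of all genes) and DESeq2 called 0 (0.122% of all genes). In edgeR 19 of the 37 had an unadjusted p under 0.05 (6.26% of all genes). The median log2 fold change was -1.72, and it was -0.61 without Het 1. Cybb (-2.17 ± 0.6, edgeR adjusted p = 0.656) and Fcer1g (-1.8 ± 0.56, edgeR adjusted p = 0.728) were the 2 genes without overlap, against 8.94% of all genes. The difference between the NTD effect in Het and in WT was tested as an interaction. edgeR called 0 of 37 genes (0% of all genes) and DESeq2 called 0 (0.0159% of all genes). In edgeR 1 gene (Cybb, -1.84 ± 0.74, edgeR adjusted p = 0.892) had an unadjusted p under 0.05, against 4.97% of all genes. The median of the interaction was -0.96, and without Het 1 it was 0.28.

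The bases before the start sites were read for letters that Spi1's product is known to prefer. RefSeq windows of 250 bases before the start site (build GRCm38.p6) were held for 29 of the 38 genes, in 32 windows. GAGGAA, on either strand, was found in 17 of the 32 windows (53.1%), in 16 genes, and in 7639 of 32851 windows of all genes (23.3%). Fcgr3 had 2 overlapping windows that hold the same match. The longer GAGGAAGT, which contains it, was found in 2 windows (6.25%) against 2.44% of all windows, the ETS-IRF composite element in 1 (3.12% against 2.3%), and TATAAA in 4 (12.5% against 12.4%). The 5 windows below stand for complement (C1qb), scavenging (Stab1), IgG binding (Fcgr1), lysosomal proteolysis (Ctss) and, as a window in which neither GAGGAA nor its reverse complement was found, adhesion (Cd84). They run 5' to 3' on the strand of the gene up to the base before the start site, and capitals mark GAGGAA or its reverse complement TTCCTC.
C1qb, chr4:136886201-136886450, minus strand: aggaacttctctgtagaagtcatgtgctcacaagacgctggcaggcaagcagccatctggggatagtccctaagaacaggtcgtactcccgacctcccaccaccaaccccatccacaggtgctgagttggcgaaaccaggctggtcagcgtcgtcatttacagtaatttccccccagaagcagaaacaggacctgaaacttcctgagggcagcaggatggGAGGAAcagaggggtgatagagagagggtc
Stab1, chr14:31168642-31168891, minus strand: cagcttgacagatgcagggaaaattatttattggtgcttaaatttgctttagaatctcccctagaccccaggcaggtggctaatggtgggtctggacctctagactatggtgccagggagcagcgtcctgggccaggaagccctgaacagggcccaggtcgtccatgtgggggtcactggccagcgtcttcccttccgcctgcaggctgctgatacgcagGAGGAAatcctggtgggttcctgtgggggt
Fcgr1, chr3:96293970-96294219, minus strand: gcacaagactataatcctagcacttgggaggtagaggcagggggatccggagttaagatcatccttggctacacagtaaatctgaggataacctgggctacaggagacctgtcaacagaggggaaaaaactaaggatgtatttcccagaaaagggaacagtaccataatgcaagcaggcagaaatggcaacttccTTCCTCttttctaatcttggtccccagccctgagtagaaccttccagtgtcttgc
Ctss, chr3:95526536-95526785, plus strand: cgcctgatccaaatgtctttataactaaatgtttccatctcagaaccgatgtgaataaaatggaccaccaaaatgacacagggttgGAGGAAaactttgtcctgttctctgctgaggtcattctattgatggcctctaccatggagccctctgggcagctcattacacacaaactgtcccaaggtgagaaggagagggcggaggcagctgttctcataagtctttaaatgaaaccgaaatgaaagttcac
Cd84, chr1:171839447-171839696, plus strand: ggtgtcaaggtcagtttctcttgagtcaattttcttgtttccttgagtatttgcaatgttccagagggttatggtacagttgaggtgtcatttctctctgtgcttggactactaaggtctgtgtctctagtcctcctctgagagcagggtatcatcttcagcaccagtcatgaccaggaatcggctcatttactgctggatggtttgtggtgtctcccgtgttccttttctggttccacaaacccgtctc
The first capital lay at base -30 in C1qb and Stab1, -55 in Fcgr1 and -164 in Ctss, counted back from the start site. A match is a description of these letters and not a binding site. The list was chosen as myeloid markers, and whether its matches bear on the Het difference was not tested. The 5 windows were picked for display, and matches were not set against the Het calls over the 29 genes.

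Genes that work with the 38 members were read from separate lists, also chosen with earlier results of these data known. Of 11 tested Fc and paired receptors outside the 38, 9 were called lower in Het than in WT and 0 higher (median log2 fold change -2.71), where 16.5% of all genes were called in either direction. Pirb, an inhibitory paired receptor, had 0.688, 0.0518 and 0.347 CPM in Het and 2.5, 2.8 and 1.95 CPM in WT (-2.71 ± 0.58, edgeR adjusted p = 0.00896). Fcgr4, an activating IgG receptor, was listed at 0 in the 3 Het libraries, against 0.329, 0.319 and 0.295 CPM in WT. Clec12a, an inhibitory lectin receptor, fell by 3.47 ± 0.69 on the log2 scale in Het (edgeR adjusted p = 0.0065).

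Of 11 tested genes of the ITAM pathway, through which Tyrobp and Fcer1g signal, 7 were called lower in Het and 0 higher (median -1.94). Of all genes tested, 8.61% were called lower. The named ITAM genes follow. Among the 7 were Btk, a cytoplasmic tyrosine kinase (-2.85 ± 0.58, edgeR adjusted p = 0.00658), Vav1, a guanine nucleotide exchange factor (-2.45 ± 0.51, edgeR adjusted p = 0.00745), and Ptpn6, the phosphatase SHP-1 (-1.94 ± 0.35, edgeR adjusted p = 0.00378). Among partners of Cybb in the oxidase, Rac2, a GTPase of blood cells, was called lower in Het (-2.09 ± 0.56, edgeR adjusted p = 0.0276). Cyba (0.06 ± 0.08) and Rac1 (0.01 ± 0.03), which most cells express, had edgeR adjusted p = 0.689 and 0.932. Of 7 adhesion genes 4 were called lower, including Itgal, the alpha chain of LFA-1 (-2.49 ± 0.48, edgeR adjusted p = 0.00493), and its ligand Icam1 (-2.32 ± 0.26, edgeR adjusted p = 0.000381).

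Of 10 further markers of embryonic and interstitial macrophages 6 were called lower in Het and 0 higher, among them Folr2, a folate receptor (-3.08 ± 0.58, edgeR adjusted p = 0.00477), Siglec1, a sialic acid receptor (-2.09 ± 0.48, edgeR adjusted p = 0.0123), and Mertk, a receptor for apoptotic cells (-1.35 ± 0.24, edgeR adjusted p = 0.00407). Of 10 chemokines and cytokines 6 were called lower and 1, Ccl7, higher (0.41 ± 0.07, edgeR adjusted p = 0.00291); Ccl3, Ccl4 and Ccl12 had log2 fold changes of -3.34, -3.31 and -3.24. In lipid handling 4 of 15 were called lower and 2 higher, with Cd36, a fatty acid and scavenger receptor, at -3.77 ± 0.56 (edgeR adjusted p = 0.00184). Of 9 classical complement genes C3 and C3ar1, the receptor of its fragment C3a, were called lower. These counts stand beside 16.5% of all genes called in either direction.

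Of 20 lysosomal genes, most of them active in many cell types, 0 were called lower in Het and 5 higher (median 0.06), where 16.5% of all genes were called in either direction. The 5 included the proteases Ctsh (1.33 ± 0.16, edgeR adjusted p = 0.000315) and Ctsl (0.71 ± 0.13, edgeR adjusted p = 0.00497). Of 13 myeloid transcription factors 3 were called lower (Ikzf1 at -2.07, Tal1 at -2.9 and Klf4) and 2 higher (Cebpb and Runx1). The difference between lists was not tested. In the CSF1 axis Il34, the other ligand of Csf1r, had 3.96, 2.95 and 3.21 CPM in Het and 1.78, 1.6 and 1.51 CPM in WT (1.05 ± 0.17, edgeR adjusted p = 0.00195). Csf1 had 583, 552 and 497 CPM in Het and 537, 485 and 523 CPM in WT (0.08 ± 0.07, edgeR adjusted p = 0.455), and 23 to 32 CPM in the lung libraries.

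In Het-NTD over WT-NTD the same lists gave 8 of 11 Fc and paired receptors lower, 6 of 11 ITAM genes, 5 of 7 adhesion genes, 5 of 10 embryonic and interstitial macrophage genes with Maf called higher, and 3 of 10 chemokines, where 11.5% of all genes were called in either direction. Of 20 lysosomal genes 4 were called higher and 0 lower.

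Markers of most other blood cells were higher in level in lung than in the cultures. In lung, B cell genes summed to 41 to 86.7 CPM, T and NK cell genes to 21.1 to 31.4 CPM, neutrophil genes to 47.2 to 250 CPM, dendritic cell genes to 830 to 1010 CPM and 12 alveolar macrophage genes to 188 to 237 CPM. In the cultures, B cell genes reached at most 0.379 CPM, T and NK cell genes 2.09 CPM, mast cell genes 0.576 CPM and neutrophil genes 2.43 CPM in any library. Monocyte genes summed to 120 to 171 CPM in lung and to 90.1 to 207 CPM in the cultures, and platelet genes to 12.5 to 25.1 CPM in lung and 9 to 28.4 CPM in the cultures. The defining T cell gene Cd3e was at 0 in each of the 21 cultures. Dendritic cell genes summed to 3.34 to 6.83 CPM and the alveolar macrophage genes to 2.84 to 9.02 CPM in the cultures.

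Single markers of other cell types also differed between Het and WT cultures. Of all genes tested, 16.5% were called in either direction in Het over WT and 11.5% in Het-NTD over WT-NTD. Of 5 tested dendritic cell genes 1, H2-Ab1, a class II antigen-presenting chain, was called higher in Het (2.33 ± 0.44, edgeR adjusted p = 0.0044) and in Het-NTD (1.86 ± 0.39, edgeR adjusted p = 0.0101). It had 1.43, 0.854 and 0.984 CPM in Het and 0.357, 0.0532 and 0.236 CPM in WT, and the summed dendritic cell genes reached 5.76 to 6.83 CPM in Het and 3.34 to 5.08 CPM in WT. Of 4 tested endothelial genes the cadherin Cdh5 was called higher in Het (2.85 ± 0.54, edgeR adjusted p = 0.0046) and the VEGF receptor Kdr lower (-1.55 ± 0.37, edgeR adjusted p = 0.0163), and the endothelial sum was 5.67 to 7.82 CPM in Het and 5.87 to 14.8 CPM in WT. In Het-NTD Cdh5 was again called higher (2.35 ± 0.54, edgeR adjusted p = 0.0161), and Kdr and Emcn lower. Of 3 tested monocyte genes Plac8 was called higher in Het (1.29 ± 0.27, edgeR adjusted p = 0.0129) and Nr4a1, also an early response gene of many cells, lower (-0.49 ± 0.06, edgeR adjusted p = 0.000351). In Het-NTD Nr4a1 and the integrin chain Itga4 were called lower. Of 4 tested platelet genes 0 were called in Het, and Ppbp was called higher in Het-NTD (1.42 ± 0.34, edgeR adjusted p = 0.0198). The part of these cell types in the lower macrophage genes was not tested.

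In lung, the Het and WT libraries had overlapping levels of nearly all 38 genes. edgeR called 0 of 38 and DESeq2 0, with 0% of all 15933 genes called by edgeR and 0.00516% by DESeq2, and 0 of the 38 had an unadjusted p under 0.05 (0.715% of all genes). On the log2 scale the median fold change was 0.06 (range -0.34 to 0.47). Emr1 had 6.47, 8.94 and 21.5 CPM in Het lung and 14.8, 7.63 and 11.6 CPM in WT lung. Csf1r had 53.3, 59.4 and 81.6 CPM in Het lung and 74.3, 56.1 and 67.5 CPM in WT lung. Cd68 had 13, 10.6 and 19.1 CPM in Het lung and 14.1, 10.5 and 11.3 CPM in WT lung. Het 3 was the highest of the 6 libraries for each of these genes, as for 20 of the 38 in all, against 31.8% of all genes tested.

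The complement chains did not share that order. C1qa had 24.9, 25.4 and 20.5 CPM in Het lung and 27.7, 24.6 and 28.9 CPM in WT lung. C1qb had 22.4, 25.5 and 22.1 CPM in Het lung and 27.8, 22.4 and 29.6 CPM in WT lung. C1qc had 26, 22 and 20.2 CPM in Het lung and 24.8, 17.5 and 26 CPM in WT lung. For each chain Het 3 was the lowest or next to lowest library, and the groups overlapped.

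Fcgr1 had 3.52, 3.31 and 3.13 CPM in Het lung and 3.63, 3.22 and 4.14 CPM in WT lung. Mrc1 had 36, 31.9 and 54.1 CPM in Het lung and 39.4, 31.2 and 38 CPM in WT lung. Cd163 had 1.49, 2.09 and 3.98 CPM in Het lung and 3.26, 2.55 and 2.15 CPM in WT lung. The ranges of Het and WT overlapped for these receptors. Ptprc had 36.7, 35.6 and 59 CPM in Het lung and 34.4, 33.9 and 38.3 CPM in WT lung (0.29 ± 0.2, edgeR adjusted p = 1). Cx3cr1, the receptor for fractalkine, had 12.7, 14 and 19.1 CPM in Het lung and 7.52, 12.5 and 12.9 CPM in WT lung and the highest log2 fold change (0.47 ± 0.25, edgeR adjusted p = 1). Ms4a7, a membrane protein of macrophages, had 3.71, 2.26 and 3.12 CPM in Het lung and 3.83, 3.74 and 3.92 CPM in WT lung and the lowest (-0.34 ± 0.23, edgeR adjusted p = 1), and it was the 1 gene whose Het libraries were each below WT, against 2.25% of all genes.

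Whether the Het over WT difference was the same in lung and in fibroblasts of experiment 2 was tested as an interaction over those 12 libraries. The difference of the log2 fold changes, lung minus fibroblasts, was above 0 for 38 of 38 genes, beside 52.5% of all genes, with a median of 2.35 (range 1.10 to 3.21). edgeR called 3 genes, Cd68 (1.56 ± 0.32, adjusted p = 0.0454), Spi1 (2.85 ± 0.58, adjusted p = 0.0473) and Cd84 (2.33 ± 0.49, adjusted p = 0.0484), where it called 0.813% of all genes in that direction. DESeq2 called 19, beside 2.53% of all genes, and 37 had an unadjusted p under 0.05 in edgeR (11.3% of all genes). The next lowest was Fcer1g (2.33 ± 0.5, edgeR adjusted p = 0.0514), with 33.9, 31.2 and 20.7 CPM in Het lung and 24.2, 24.2 and 30 CPM in WT lung. Spi1 had 12.7, 11.8 and 19.6 CPM in Het lung and 12.4, 12.8 and 14.2 CPM in WT lung, Cd84 had 9.06, 8.73 and 13.6 CPM in Het lung and 11.4, 7.63 and 11 CPM in WT lung, and Stab1 (3.11 ± 0.69, edgeR adjusted p = 0.0574) had 74, 69.5 and 95 CPM in Het lung and 93.1, 68.8 and 74.6 CPM in WT lung. Het and WT lung overlapped for these 4 genes, while Het and WT fibroblasts did not.

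edgeR called 29 of the 38 without fibroblast Het 1. It called 0 with any 1 of Het lung 1, WT lung 1, 2 or 3, fibroblast Het 3, or fibroblast WT 2 or 3 left out. It called 1 without Het lung 2, fibroblast Het 2 or fibroblast WT 1, and 4 without Het lung 3, the lung library that was highest for 20 of the 38 genes. The genotype difference in the cultures and the tissue difference also involve separate sets of animals of different age, which cannot be told apart from tissue.

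**Figure D3:**
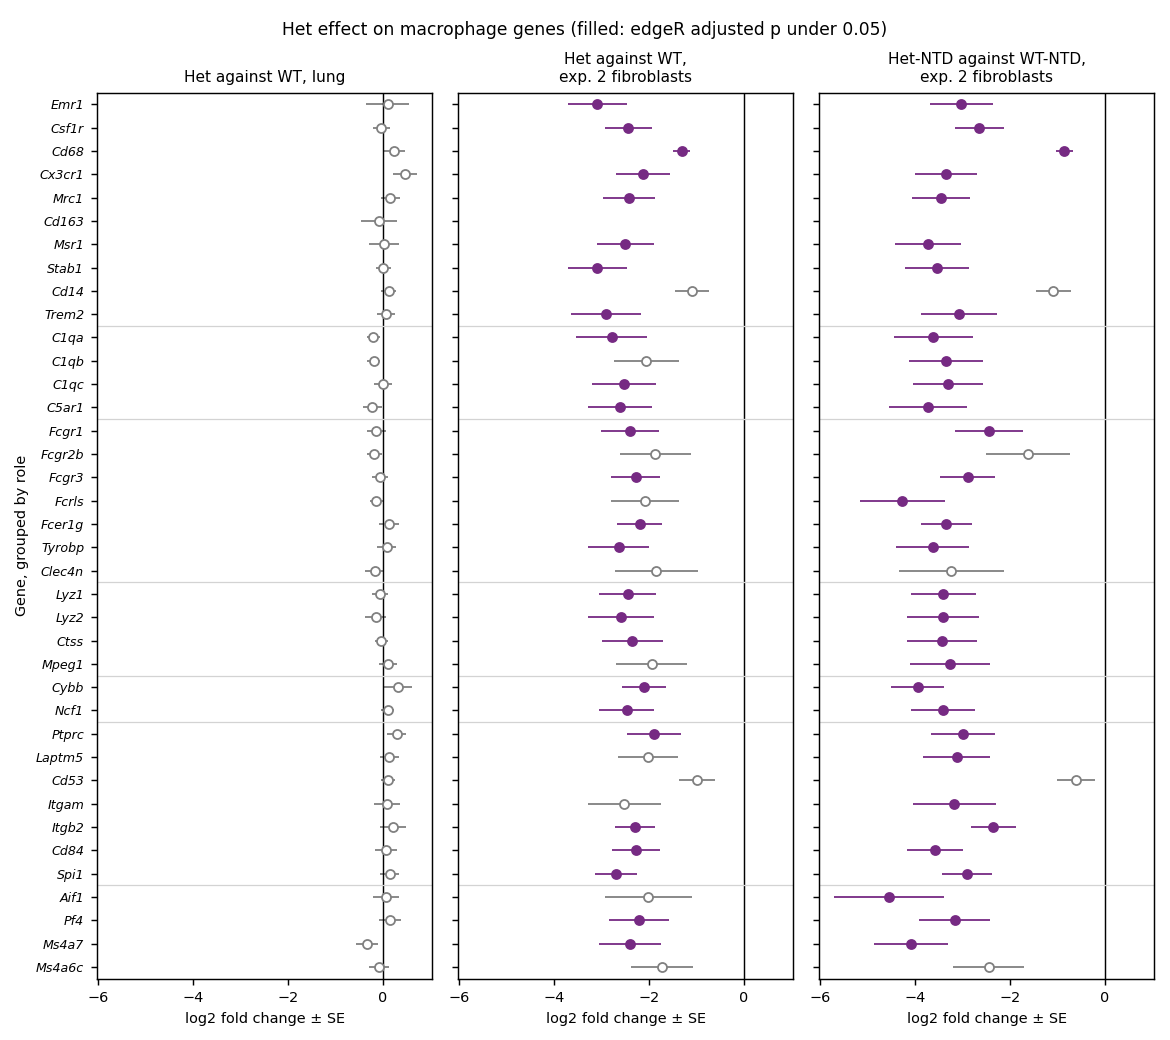
Log2 fold change of each gene with its standard error, for Het over WT lung, Het over WT fibroblasts and Het-NTD over WT-NTD fibroblasts. Filled points had an edgeR adjusted p under 0.05: none in lung, 26 and 32 in the fibroblast comparisons, where each tested gene lies left of 0.

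WT lung was set against WT fibroblasts of experiment 2. Of 38 genes edgeR called 25 higher in lung and 0 lower, beside 41.5% of all 16364 genes called higher, and DESeq2 called 25 higher, beside 36.7% of all genes, and 1 lower. The median log2 fold change was 1.85, beside 0.14 over all genes tested. For 30 genes each lung library was above each fibroblast library and for 1, Msr1, below, against 44.8% and 37.2% of all genes. The calls were uneven over the roles, with 4 of 10 identity receptors, 0 of 4 complement genes, 6 of 7 Fc receptors and adaptors, each of 4 lysosomal genes, both oxidase subunits, 6 of 7 pan-leukocyte genes and 3 of 4 others. The difference between roles was not tested.

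Lyz1 had 653, 610 and 777 CPM in WT lung and 5.4, 5.48 and 6.65 CPM in WT fibroblasts, the highest log2 fold change at 6.85 ± 0.51 (edgeR adjusted p = 2.37e-07). Cd53 had 19.9, 22.4 and 25.3 CPM in WT lung and 3.46, 2.18 and 2.24 CPM in WT fibroblasts (3.09 ± 0.27, edgeR adjusted p = 8.58e-07), and Clec4n had 7.92, 6.91 and 7.25 CPM in WT lung and 0.357, 0.319 and 0.295 CPM in WT fibroblasts (4.48 ± 0.42, edgeR adjusted p = 1.48e-06). Lysozyme is also made by lung epithelium, whose 6 markers summed to 18800 to 22300 CPM in WT lung and to 3.46 to 5.7 CPM in WT fibroblasts, and their part in this result was not tested. Ptprc had 34.4, 33.9 and 38.3 CPM in WT lung and 4.58, 4.29 and 4.11 CPM in WT fibroblasts (3.03 ± 0.41, edgeR adjusted p = 3.48e-05), and Fcgr2b had 9.98, 7.75 and 7.65 CPM in WT lung and 0.713, 0.399 and 0.709 CPM in WT fibroblasts (3.79 ± 0.51, edgeR adjusted p = 3.53e-05). Each of these 5 genes was higher in each lung library than in each fibroblast library.

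Of the 10 identity receptors, by which macrophages are often recognised, 4 were called higher in lung, and the median log2 fold change was 0.62 (range -1.25 to 4.23). They were Cd163 (4.23 ± 0.75, edgeR adjusted p = 0.000303), Cd14 (2.02 ± 0.32, edgeR adjusted p = 0.000131), Mrc1 (1.64 ± 0.45, edgeR adjusted p = 0.00575) and Csf1r (1.38 ± 0.39, edgeR adjusted p = 0.0074). The others ran from Msr1 at -1.25 to Stab1 at 1.08 ± 0.47 (edgeR adjusted p = 0.0545), with Trem2, Emr1, Cx3cr1 and Cd68 between -0.12 and 0.17. Emr1 had 14.8, 7.63 and 11.6 CPM in WT lung and 10.4, 11.9 and 11.2 CPM in WT fibroblasts, a log2 fold change of 0.01 ± 0.61 (edgeR adjusted p = 0.986), and Cd68 had 14.1, 10.5 and 11.3 CPM in WT lung and 10.4, 11 and 10.3 CPM in WT fibroblasts, at 0.17 ± 0.22 (edgeR adjusted p = 0.495). Itgam, the integrin alpha chain CD11b, had 7.9, 11.1 and 13.2 CPM in WT lung and 9.76, 9.21 and 12.8 CPM in WT fibroblasts, at 0.01 ± 0.67 (edgeR adjusted p = 0.989). Lung and fibroblasts overlapped for each of these 3 genes, and an adjusted p near 1 does not show that their levels were alike. Msr1 had 3.39, 1.71 and 2.93 CPM in WT lung and 5.29, 5.08 and 8.57 CPM in WT fibroblasts, and its log2 fold change of -1.25 ± 0.53 missed the threshold in edgeR (adjusted p = 0.0507) and passed it in DESeq2.

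The highest fibroblast library exceeded the highest lung library for 6 genes, Emr1, Msr1, Trem2, C5ar1 (the receptor for the complement fragment C5a), Itgam and Ms4a7. For 29 genes the highest fibroblast library was below the lowest lung library. Neither count was made over all genes. In the WT libraries of lung and experiment 2, 44.8% of all genes lay higher in lung without overlap.

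The make-up of the signal was compared as each gene's share of the summed CPM of the 36 genes, so that each library's sum was set to the same total. The share was higher in each WT lung library than in each WT fibroblast library for 17 genes, lower for 13 and overlapping for 6. Such shares were not computed over all genes. In CPM, 44.8% of all genes lay higher in lung without overlap and 37.2% lower. Because the shares have a fixed total, a higher share of some genes lowers that of others. Ctss, the protease cathepsin S, made up 10.3% ± 0.443 in WT lung and 3.09% ± 0.445 in WT fibroblasts (SD, n = 3 each). Emr1 made up 1.33% ± 0.31 in WT lung and 4.03% ± 0.643 in WT fibroblasts, and Msr1 0.313% ± 0.0744 in WT lung and 2.24% ± 0.526 in WT fibroblasts. With 3 libraries a side the smallest exact permutation p is 0.1, so these shares were compared by their ranges. The ratio of mean share, lung over fibroblasts, was 7.55 in Clec4n and 4.71 in Fcgr2b. In Cd163 it was 6.05, but rested on 0, 12 and 3 counts in the fibroblast libraries, and it was 21.7 without WT 2 and 4.03 without WT 1. The smallest ratios were 0.14 in Msr1, 0.273 in C5ar1 and 0.308 in Trem2.

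**Figure D4:**
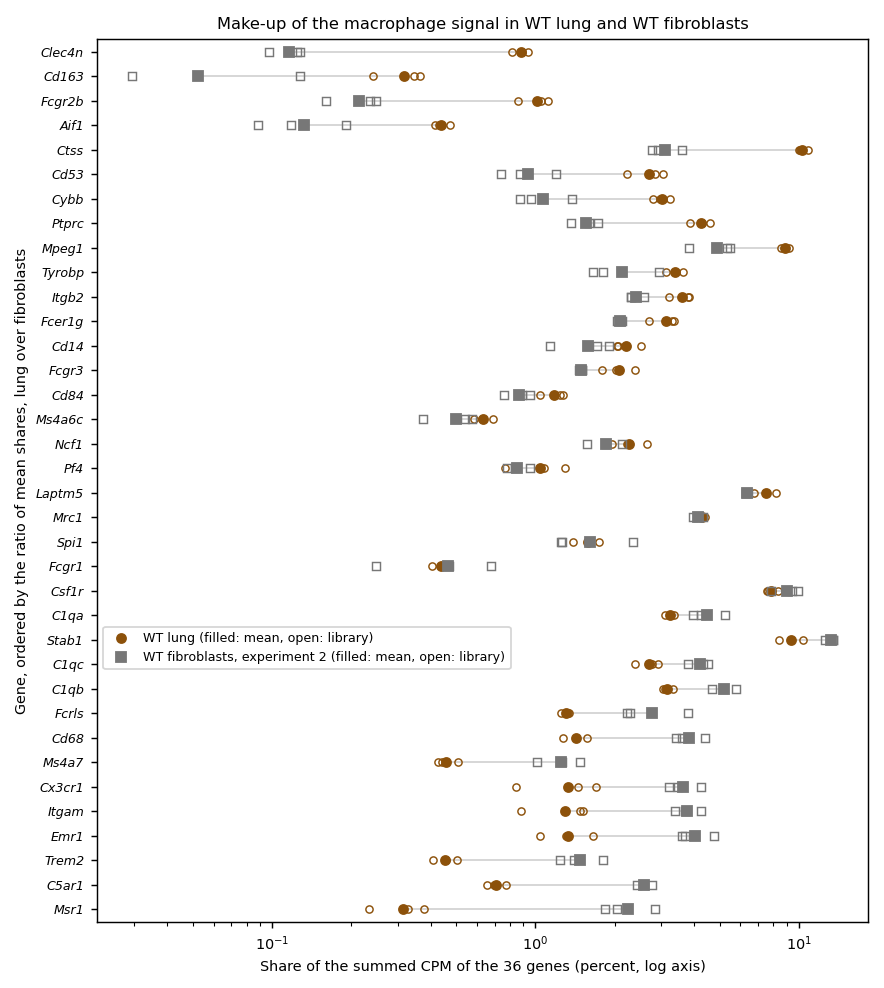
Share of the summed CPM of 36 genes taken by each gene, on a log axis, in WT lung and WT fibroblasts of experiment 2. Filled symbols are means and open symbols the 3 libraries, with genes ordered by the ratio of means; Cd163 in fibroblast WT 1 was at 0 and has no symbol, and Ctss lies at 10.3% in lung against 3.09% in fibroblasts.

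Levels of different genes were compared per length of transcript, as TPM computed from exon lengths. In WT lung the highest means were 4510 TPM for Lyz2, 2050 for Lyz1, 244 for Ctss, 162 for Tyrobp and 114 for Fcer1g, and the lowest was 1.62 for Msr1. In WT fibroblasts of experiment 2 Lyz2 was again highest at 205 TPM, followed by C1qb at 48.7, C1qa at 44, Tyrobp at 32 and Cd68 at 30.6, with Cd163 lowest at 0.0918 TPM. Lyz2, C1qa and C1qb were also the highest 3 in WT of experiment 1, at 89.1, 14.9 and 14.5 TPM.

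Some of these counts can share reads with other genes. The table lists Emr1 under its older symbol, annotated as Adgre1 on chromosome 17, 57358691 to 57483527 of GRCm38. Exons of Csf1r overlap those of Hmgxb3 by 873 bases and those of Ncf1 overlap Gtf2ird2 by 408 bases, and a kit that does not mark strand cannot separate them. Stretches of 50 bases identical to another gene made up 66.3% of Itgam, 51.4% of Ms4a6c, 16.1% of Lyz1 and 15.4% of Lyz2. The levels of these genes may be affected, but such a percentage does not measure by how much. For Itgam the 1 gene that shares them, Gm49368, is not among the symbols of the count table.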

How the data were processed

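The deposited table holds raw gene counts, 1 column per library. Per the submitters' processing notes, reads were handled with TopHat2 2.0.14, Bowtie2 2.2.6 and featureCounts 1.4.6 of the Subread package on build mm10; the annotation and the strand setting are not given in the sources used here. About 200 ng of RNA entered each library, per the labels.

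The counts were tested with edgeR 4.0.16 (R 4.3.3): TMM scaling, its filter on low counts by group, robust quasi-likelihood fits and Benjamini-Hochberg adjustment over all genes tested, at 0.05. Experiment 1 (14551 genes), experiment 2 (14314), lung (15933) and Het and WT of both tissues together (16364) were fitted separately. A standard error is the log2 fold change over the root of F. The alternatives were DESeq2 1.42.0, RLE scaling, no filter, the compared groups alone, the replicate number as a block, and each library left out. DESeq2 was run without edgeR's filter, so its shares of all genes have a wider base, 18837 genes in experiment 2. Genes to which DESeq2 gave no adjusted p count there as not called. The ratios of share without single libraries were added after seeing the data. Printed CPM use 1 TMM scale over the 27 libraries, and TPM use exon lengths of 23692 symbols. No pair of replicates agreed within sampling noise (chi-square per degree of freedom of at least 5.88). The fits of experiment 1, experiment 2 and lung were tested on simulated data, and the fit of both tissues together was not. The simulation used the same spread for all genes and placed changes only in well-counted genes. It does not cover members near the floor.

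The genes shown in full are the defining markers, up to 5 with the lowest adjusted p per comparison, and those against the direction of most. The members, the other lists and these rules were chosen with earlier results of these data known. The labels state no pairing by replicate number, and none was used in the main fits. Some items are not reported here.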

Additional observations from a re-analysis of the deposited data

Results flagged for a closer look

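For 3 genes the Het over WT difference in lung minus that in fibroblasts passed the test of the difference itself, an interaction term in edgeR over 12 libraries. The values were 1.56 ± 0.32 for Cd68 (edgeR adjusted p = 0.0454), 2.85 ± 0.58 for Spi1 (edgeR adjusted p = 0.0473) and 2.33 ± 0.49 for Cd84 (edgeR adjusted p = 0.0484), on the log2 scale. Each gene was lower in each of the 3 Het fibroblast libraries than in each WT fibroblast library, and in lung Het and WT overlapped for each. None of the 3 calls held under all alternatives, since edgeR called 0 of the 38 genes without any 1 of 7 of the 12 libraries.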

How the results depend on the processing

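The number of members called lower in Het than in WT fibroblasts was 26, and it was 10 with the compared groups alone and 10 to 34 with single libraries left out, against 19 with no filter on low counts, 26 with RLE scaling and 30 by DESeq2. In Het-NTD against WT-NTD fibroblasts 32 members were called lower, 10 to 30 with single libraries left out and 29 to 35 under the other alternatives. The cause was not tested. For the Het difference in lung minus fibroblasts 3 members were called, against 19 by DESeq2 and 0 to 29 with single libraries left out. With the replicate number as a block 33 members were called lower in Het fibroblasts, 33 in Het-NTD fibroblasts and 0 in the difference between tissues. The numbers mark no stated pairing. Same-numbered libraries deviated together (correlation over 0.1) in 5 of 9 pairs in experiment 1. They did so in 8 of 18 pairs in experiment 2 and 1 of 3 in lung. The best match had the same number in 5 of 9, 9 of 18 and 0 of 3 pairs. These values do not settle whether the libraries were paired. Of the 25 members called in WT lung against WT fibroblasts, 25 kept their call under the alternatives run. In Het against WT fibroblasts 9 did (Fcer1g, Cd84, Itgb2, Cd68, Stab1, Emr1, Csf1r, Spi1 and Cybb), as did 9 in Het-NTD against WT-NTD fibroblasts (Fcgr3, Fcer1g, Cd84, Itgb2, Ms4a7, Mrc1, Spi1, Msr1 and Cybb). Apart from these and the Het difference in lung minus fibroblasts, each comparison gave 0 calls by edgeR and DESeq2 under each alternative run. No called member changed direction in the alternatives run. Genes near the floor of 3 counts in the cultures, Cd163 above all, limit what depth can show.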
